A study of Mus musculus with 2 samples.

Results

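Single-cell RNA sequencing of the mouse uterus was used to follow 10 transcription factor genes of the uterine epithelium, chosen by name as regulators of glands and of receptivity: Foxa2, Sox17, Sox11, Msx1, Klf4, Klf5, Gata2, Elf3, Ehf and Pax8. They are 10 of the 31053 genes in the deposited matrices, and all 10 were found by symbol. Whole uterus was taken on gestational day 4 from mice labelled f/f and d/d for Mettl14, which in usual mouse notation stand for floxed and deleted alleles. METTL14 is the partner of METTL3 in the complex that writes N6-methyladenosine into RNA. There was 1 library per genotype, and the labels give neither the Cre driver, the number of animals behind a library, nor their age or strain. No difference therefore has a replicate check, no p-value is given, and all 95% intervals cover counting error only.

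The uterine lining is a single sheet of luminal epithelium, to which the embryo attaches, and glands that grow down from it into the stroma and secrete factors the embryo needs. Foxa2 marks the glands and is required for their development and for their secretion of leukemia inhibitory factor (Lif). Sox17, Klf5 and Gata2 are needed in the uterus for a receptive lining, Msx1 acts there together with its paralog Msx2, Klf4 is a zinc finger relative of Klf5, Elf3 and Ehf are epithelial members of the ETS family, Pax8 marks epithelium of the female tract, and Sox11 is a SOX factor best known from developing tissues.

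Depth was 55080123 unique molecular identifiers (UMIs) over 8164 barcodes in f/f and 44745031 over 6661 in d/d, of which 7095 and 5977 cells were kept. Both libraries listed 8 of the same barcodes. Epithelium-like cells, taken from the UMIs of 9 epithelial markers, numbered 172 in f/f (2.42% of kept cells) and 138 in d/d (2.31%). In f/f, 68 fell in a luminal range and 97 in a glandular range of marker UMIs and 7 in neither. In d/d, 70 fell in the glandular range, 9 in the luminal range and 59 in neither, so the d/d epithelium is described as a whole. These ranges are not cell types: 42 of the 70 d/d cells lay under 1.5 times the glandular threshold, and 27 more lay between the threshold and that threshold divided by 1.5. The luminal markers had a median of 88.2 UMIs per 10000 in f/f luminal-like cells, 0.98 in f/f glandular-like cells and 1.22 in d/d epithelium. The glandular markers had medians of 0, 65.0 and 10.4 in the same order. The luminal markers Calb1, Lrp2, Lpar3, Wnt7a and Fxyd4 were lower in d/d epithelium than in luminal-like cells. In CPM, the UMIs of a gene per 1000000 UMIs of the class, Calb1 stood at 32.3 against 1466, Lrp2 at 11.1 against 1195, Lpar3 at 4.00 against 262 and Wnt7a at 0 against 50.6. Fxyd4 stood at 284 against 5625, with a UMI in 71.0% of d/d cells, above the 161 CPM and 49.5% of glandular-like cells. In the glandular panel Cxcl15 (638 CPM in d/d against 341 in glandular-like cells) and Spink1 (231 against 6565) differed in opposite directions. In clustering, all d/d epithelium-like cells and 59.9% of the f/f ones lay in cluster 13. Stromal markers had medians of 4.17, 4.41 and 1.35 per 10000, and the panels of smooth muscle, pericytes, endothelium and immune cells had medians of 0. The d/d epithelial cells were deeper, with a median of 19425 UMIs against 10296.5 in luminal-like and 9268 in glandular-like cells, and 28 of them against 2 in f/f epithelium held over 50000 UMIs. At least 2 UMIs of 5 cycling genes were found in 41.2% of luminal-like, 23.7% of glandular-like and 47.1% of d/d epithelial cells, but not of the same genes. In luminal-like cells 112 of these UMIs were Top2a, with 3 of Mki67, 1 of Cdk1, 4 of Cenpf and 9 of Ube2c. In d/d epithelium Top2a had 347 UMIs, Mki67 152, Cdk1 168, Cenpf 221 and Ube2c 384, so Mki67 stood at 3.30 CPM in luminal-like cells, 2.52 CPM in glandular-like cells and 35.8 CPM in d/d. The part of these differences in the results was not tested.

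Levels are CPM of the summed UMIs of a class. Mettl14 stood at 17.6 CPM in luminal-like cells (16 UMIs), 16.0 CPM in glandular-like cells (19 UMIs) and 4.47 CPM in d/d epithelium (19 UMIs). The ratio of d/d to all f/f epithelium was 0.249 (0.136 to 0.442). The d/d to f/f ratio was 0.177 (0.121 to 0.251) in stroma, 0.159 (0.0923 to 0.269) in smooth muscle and 0.205 (0.0499 to 0.636) in pericytes. In blood endothelium Mettl14 was not lower in the library labelled d/d, at 18.9 against 18.4 CPM, a ratio of 1.03 (0.735 to 1.43). Lymphatic endothelium (0.363, 0.0969 to 1.36) and macrophages (0.710, 0.205 to 3.10) had intervals too wide to give a direction. The labels do not name the deleted exons, and in any class a 3′ tag can lie outside them. Why the classes differed was not tested.

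The sequences just upstream of the start site are shown for 4 genes that stand for the patterns described next: Foxa2 for the gland gene, Elf3 for the luminal genes, Pax8 for the gene at least 2-fold lower than in both f/f groups, and Sox11 for the gene nearly absent from f/f epithelium. Each is the 250 bases before a start site in RefSeq (GRCm38.p6), 5′ to 3′ on the gene's own strand, with capitals marking motif letters. The windows are chr2:148046970-148047219 for Foxa2, chr1:135258473-135258722 for Elf3, chr2:24475600-24475849 for Pax8 and chr12:27342719-27342968 for Sox11, all on the minus strand.
Foxa2: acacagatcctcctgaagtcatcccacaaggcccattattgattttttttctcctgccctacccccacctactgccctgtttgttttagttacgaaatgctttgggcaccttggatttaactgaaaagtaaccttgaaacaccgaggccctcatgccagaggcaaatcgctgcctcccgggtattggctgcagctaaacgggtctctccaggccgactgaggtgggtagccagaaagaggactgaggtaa
Elf3: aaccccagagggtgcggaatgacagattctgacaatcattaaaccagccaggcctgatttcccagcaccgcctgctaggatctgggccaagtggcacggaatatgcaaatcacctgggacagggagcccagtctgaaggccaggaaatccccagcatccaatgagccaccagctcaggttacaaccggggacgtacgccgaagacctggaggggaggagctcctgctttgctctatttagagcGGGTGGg
Pax8: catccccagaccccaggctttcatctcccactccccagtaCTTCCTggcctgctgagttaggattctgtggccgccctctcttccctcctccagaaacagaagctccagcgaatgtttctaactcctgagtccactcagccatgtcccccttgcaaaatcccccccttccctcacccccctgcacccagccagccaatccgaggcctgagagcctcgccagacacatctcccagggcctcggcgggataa
Sox11: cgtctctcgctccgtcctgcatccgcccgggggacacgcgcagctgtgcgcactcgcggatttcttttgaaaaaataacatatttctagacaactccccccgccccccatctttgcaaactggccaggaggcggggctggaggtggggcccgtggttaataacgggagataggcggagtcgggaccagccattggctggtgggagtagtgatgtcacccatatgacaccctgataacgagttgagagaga
The RefSeq table held windows for 7 of the 10 genes (10 windows). A core word of each factor family was searched on both strands. The Elf3 window held 1 KLF word (CCACCC), and 28.1% of all 32851 windows held at least 1. The Pax8 window held 1 ETS word (AGGAAG), found in 29.5% of all windows. The GATA word (AGATAA, in 9.99% of all windows) was found in none of the 4. No word was found in the Foxa2 window shown or in the Sox11 window, while the other Foxa2 windows each held 2 KLF words. Of these, the window at chr2:148045949-148046198 also held 1 ETS word, and that at chr2:148045465-148045714 held 1 GATA word. No window of these genes held the FOX word (TGTTTAC), which 3.17% of all windows had. The SOX word (ACAATG), in 10.7% of all windows, was likewise in none. Neither was the MSX word (TAATTG), in 7.17% of all windows. These are matches of letters and not binding sites.

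Foxa2, a forkhead factor that opens chromatin at gland genes, separated the f/f glands from the f/f lumen and was near the gland level in d/d epithelium. It stood at 8.79 CPM in f/f luminal-like cells (8 UMIs), 173 CPM in f/f glandular-like cells (206 UMIs) and 150 CPM in d/d epithelium (638 UMIs). All 8 luminal UMIs came from 1 cell of 26434 UMIs, which had luminal markers at 65.8 and glandular markers at 7.94 per 10000. The ratio of d/d epithelium to luminal-like cells was 17.1 (8.62 to 39.8), and its lower side rests on that cell. The log2 fold of d/d epithelium over glandular-like cells was -0.21 (-0.43 to 0.03), an interval that holds 0. A Foxa2 UMI was present in 72.2% of glandular-like and 75.4% of d/d epithelial cells. At an equal 5000 UMIs per cell, computed over the 86 and 125 cells deep enough, the expected shares were 54.5% (43.4 to 65.3) and 44.5% (35.6 to 53.6). Among stroma-like cells, which should lack the gene, 0.28% of the 4663 in f/f and 0.11% of the 1787 in d/d had a UMI, at median depths of 6565 and 6773. Within d/d epithelium Foxa2 did not follow the marker ranges: it stood at 154 CPM in the glandular range (138 to 170), 140 CPM in cells of neither range (122 to 159) and 194 CPM in the 9 cells of the luminal range (142 to 257), where 28 of 47 UMIs came from 1 cell. Its paralogs Foxa1 and Foxa3 had 0 and 1 UMIs in all of these cells. The gene (ENSMUSG00000037025) lies on chromosome 2 at 148042877 to 148046969 in the GRCm38 annotation.

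**Figure D1:**
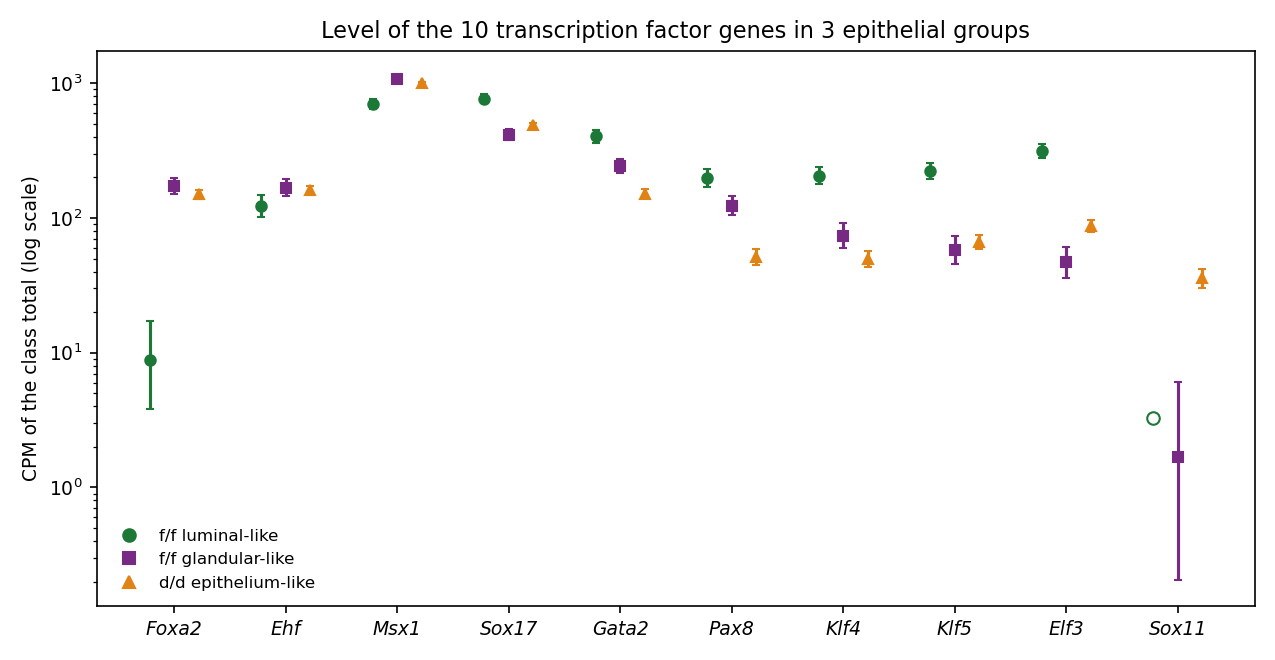
Level of each gene (CPM of the class total, log axis) in f/f luminal-like, f/f glandular-like and d/d epithelium-like cells. Points are summed UMIs of 1 library with exact 95% Poisson intervals, and the open circle is 3 counts where no UMI was seen. Foxa2 in d/d epithelium (150) sits beside the glandular-like level (173), while Pax8, Gata2 and Klf4 in d/d lie under both f/f groups.

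Sox17, an HMG-box factor of the uterine epithelium, differed by less than 2-fold between the 3 groups, and Sox11, a SOX factor of developing tissues, was found among epithelial cells almost entirely in d/d. Sox17 stood at 768 CPM in luminal-like cells, 415 CPM in glandular-like cells and 490 CPM in d/d epithelium. Its log2 fold in d/d was -0.65 against the lumen (-0.77 to -0.52) and 0.24 against the glands (0.09 to 0.38), both under 2-fold. At 5000 UMIs per cell it was expected in 96.9%, 85.3% and 86.3% of cells, against 3.13% (f/f) and 2.97% (d/d) in stroma-like cells as deposited. The 9 d/d cells of the luminal range had 1182 CPM of Sox17 (1049 to 1327) against 461 CPM in the d/d glandular range (434 to 490). A single cell of those 9, of 100182 UMIs, held 135 of their 287 Sox17 UMIs. Sox11 had 0 UMIs in luminal-like cells, 2 UMIs in glandular-like cells (1.68 CPM) and 151 UMIs in d/d epithelium (35.6 CPM). The 0 UMIs in 68 luminal-like cells allow a share of up to 4.41% of cells with a UMI. The d/d level was at least 10.8-fold higher with the luminal count set to the floor of 3 UMIs, and the exact 95% interval of the ratio starts at 8.66. Against glandular-like cells the ratio was 21.1, with a counting interval of 5.75 to 176 that rests on those 2 UMIs. Sox11 UMIs were spread over 43 d/d cells (31.2%, 23.6 to 39.6). All 43 also had Sox17, as did 132 of all 138 d/d cells, so that overlap says little. At 5000 UMIs per cell the expected share was 13.3% in d/d epithelium and 1.11% in glandular-like cells. In stroma, 1.45% of d/d against 0.30% of f/f cells had a Sox11 UMI. It was not even within the d/d epithelium: the tenth of cells with most Sox11 UMIs held 66.9% of them. The level was 47.9 CPM in the d/d glandular range (39.4 to 57.6) and 23.7 CPM in cells of neither range, and the 9 luminal-range cells had none. Among the SOX relatives, Sox9, a factor of glandular epithelium, stood at 20.9, 184 and 628 CPM, while Sox4 stood at 85.7, 146 and 174 CPM in luminal-like, glandular-like and d/d cells. The annotation places Sox17 (ENSMUSG00000025902) on chromosome 1 at 4490931 to 4497354 and Sox11 (ENSMUSG00000063632) on chromosome 12 at 27334264 to 27342574.

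Msx1 and Ehf, a homeobox factor of uterine receptivity and an ETS factor of epithelia, had the smallest spread of levels between the groups. Msx1 stood at 701 CPM in luminal-like cells, 1072 CPM in glandular-like cells and 998 CPM in d/d epithelium. Its log2 fold in d/d was 0.51 against the lumen (0.39 to 0.63) and -0.10 against the glands (-0.19 to -0.01). The latter turned to 0.12 when the trimmed mean of M values (TMM) set the scale. An Msx1 UMI was expected in 95.5%, 99.4% and 96.3% of cells at 5000 UMIs, and in stroma the shares were 2.53% for f/f against 3.47% for d/d. Ehf stood at 123 CPM in luminal-like cells, 168 CPM in glandular-like cells and 160 CPM in d/d epithelium. Its log2 fold was 0.38 against the lumen (0.09 to 0.68) and -0.07 against the glands (-0.30 to 0.17), an interval that holds 0. Both genes were epithelial: 82.3% of all d/d Msx1 UMIs and 89.7% of all d/d Ehf UMIs lay in the 138 epithelial cells. Msx2, the paralog of Msx1, stood at 3.30 CPM in luminal-like cells (3 UMIs), 31.1 CPM in glandular-like cells and 46.2 CPM in d/d epithelium. In the same build Msx1 (ENSMUSG00000048450) on chromosome 5 at 37820485 to 37824583 and Ehf (ENSMUSG00000012350) on chromosome 2 at 103263433 to 103303278 are annotated.

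Klf4, Klf5 and Elf3 were higher in the lumen than in the glands of the f/f uterus, and at least 2-fold lower in d/d epithelium than in that lumen. Klf5, a factor that the lining needs for attachment of the embryo, stood at 224 CPM in luminal-like cells, 58.0 CPM in glandular-like cells and 65.9 CPM in d/d epithelium. Its log2 fold in d/d was -1.77 against the lumen (-2.03 to -1.50) and 0.18 against the glands (-0.20 to 0.59). Klf4 stood at 207, 74.0 and 49.5 CPM in the same order, with log2 folds of -2.06 against the lumen (-2.35 to -1.77) and -0.58 against the glands (-0.95 to -0.21). Elf3, the ETS factor, showed the widest gap of the 3 between lumen and glands, 317 CPM against 47.1 CPM, a log2 fold of -2.75 for glands over lumen (-3.19 to -2.33). In d/d epithelium Elf3 stood at 87.4 CPM, with a log2 fold of -1.86 against the lumen (-2.08 to -1.63) and 0.89 against the glands (0.48 to 1.32). That value against the glands lay near 2-fold and ranged from 0.82 to 1.11 over the settings tried. The shares of cells followed the levels at equal depth. At 5000 UMIs per cell Elf3 was expected in 76.2% of luminal-like, 21.8% of glandular-like and 35.2% of d/d cells, and as deposited in 94.1%, 36.1% and 76.8%. For Klf5 the share as deposited was 85.3%, 45.4% and 65.2%, and at 5000 UMIs 63.2% in luminal-like and 27.8% in d/d cells. As background, stroma-like cells as deposited had an Elf3 UMI in 0.66% (f/f) and 0.45% (d/d) and a Klf5 UMI in 1.22% and 3.30%. The 9 d/d luminal-range cells had 185 CPM of Elf3 (135 to 248) and 119 CPM of Klf5 (80.0 to 171), above the d/d glandular range at 69.4 CPM and 51.3 CPM, although 18 of their 29 Klf5 UMIs came from the cell of 100182 UMIs. Luminal-range cells made up 9 of 138 d/d epithelial cells and 68 of 172 in f/f. The 3 genes lie apart, Klf4 (ENSMUSG00000003032) on chromosome 4 at 55527143 to 55532466, Klf5 (ENSMUSG00000005148) on chromosome 14 at 99298691 to 99315036 and Elf3 (ENSMUSG00000003051) on chromosome 1 at 135253575 to 135258568.

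Gata2 and Pax8, a zinc finger factor of progesterone response and a paired-box factor of the female tract, were lower in d/d epithelium than in either f/f group. Klf4, described above, was also lower than in both. Gata2 stood at 403 CPM in luminal-like cells, 242 CPM in glandular-like cells and 151 CPM in d/d epithelium. Its log2 fold in d/d was -1.41 against the lumen (-1.60 to -1.22) and -0.68 against the glands (-0.88 to -0.47). Pax8 stood at 199 CPM in luminal-like cells (181 UMIs), 124 CPM in glandular-like cells (147 UMIs) and 51.1 CPM in d/d epithelium (217 UMIs). Its log2 fold was -1.96 against the lumen (-2.25 to -1.67) and -1.27 against the glands (-1.58 to -0.96), and the latter stayed between -1.41 and -1.05 over the settings tried. Pax8 was low in every range of d/d cells, at 47.9 CPM in the glandular range, 54.0 CPM in neither range and 61.8 CPM in the luminal range. At 5000 UMIs per cell a Pax8 UMI was expected in 53.9% of luminal-like, 44.0% of glandular-like and 23.0% of d/d cells, although 64.5% of d/d cells had one as deposited, and stroma-like cells had one in 0.41% (f/f) and 0.17% (d/d). Its relative Pax2 was closer between groups, at 119, 72.3 and 82.2 CPM. GRCm38 has Gata2 (ENSMUSG00000015053) on chromosome 6 at 88193891 to 88207032 and Pax8 (ENSMUSG00000026976) on chromosome 2 at 24420560 to 24475599.

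**Figure D2:**
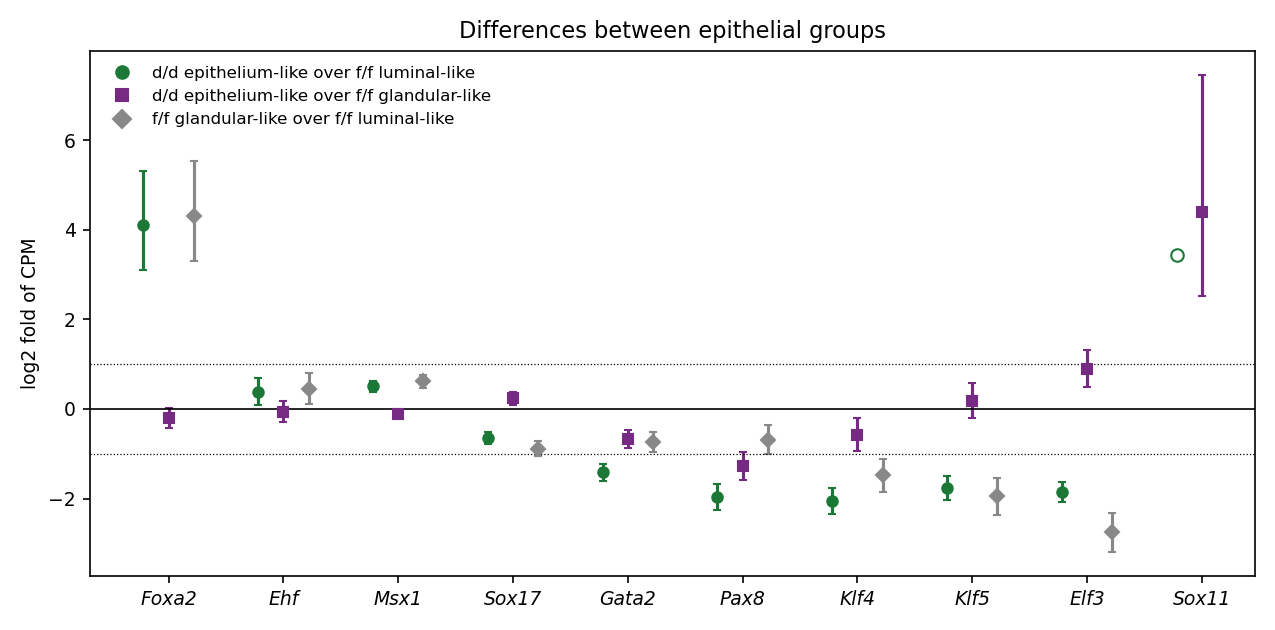
Log2 fold of the level between epithelial groups for each gene, with exact 95% counting intervals, dotted lines at 2-fold, an open circle for a lower bound against 0 UMIs, and no Sox11 point for glands over lumen. Elf3, Klf4 and Klf5 are lower in both the f/f glands and the d/d epithelium than in the f/f lumen, and Pax8 in d/d (-1.27 against the glands) lies under both.

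Counted over the genes, those at least 2-fold apart with at least 20 UMIs in the compared groups were as follows. Against the f/f lumen, 2 of 10 were higher in d/d epithelium (Foxa2, Sox11), with 17.7% of all 10206 genes tested higher by the same rule. In the other direction 5 of 10 were lower (Klf4, Klf5, Gata2, Elf3, Pax8), with 14.3% of all genes lower. The median log2 fold was -1.03 over the 10 and 0.02 over all genes. As few d/d cells were in the luminal range, this comparison with the lumen mixes makeup with level. Against the f/f glands, 1 of 10 was higher (Sox11) and 1 lower (Pax8), beside 10.5% and 10.4% of 10249 genes, with medians of -0.09 and -0.12. That is a share near the background. Within f/f, 1 of the 9 genes with enough UMIs was higher in glands than in lumen (Foxa2) and 3 were lower (Klf4, Klf5, Elf3), beside 13.8% and 10.9% of 8360 genes. The medians there were -0.74 over the 9 and 0.10 over all genes. Against all f/f epithelium, 1 of 10 was higher (Sox11) and 3 were lower (Klf4, Gata2, Pax8), beside 9.27% and 12.7% of 10641 genes, but Gata2 moved from -1.05 to -0.86 with TMM. The count of lower genes was 5 with clusters, 4 with doublets kept or the epithelial threshold doubled, and 2 with TMM, the other totals, or cycling or very deep cells left out. The f/f epithelium holds more luminal-range cells than the d/d epithelium, so that comparison mixes makeup with level, and fewer cells of a kind and less RNA per cell cannot be told apart in it. These comparisons share their f/f or d/d cells. TMM moved every log2 fold by 0.13 against the lumen, 0.22 against the glands and 0.19 against all f/f epithelium. The split of all genes then became 13.7% and 6.97% against the glands, and 12.2% and 9.68% against all f/f epithelium. Without mitochondrial and ribosomal protein genes in the totals, 22.2% were higher and 10.9% lower against the lumen, and 12.7% and 7.47% against the glands.

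**Figure D3:**
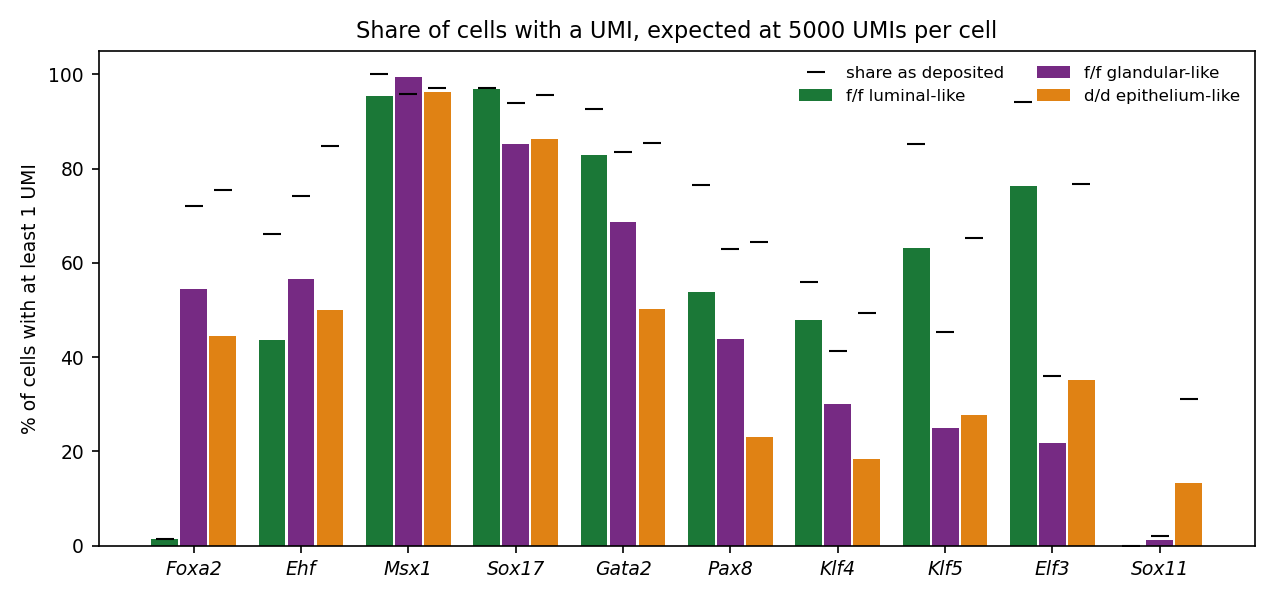
Percent of cells with at least 1 UMI of each gene, as bars for 5000 UMIs per cell (60 luminal-like, 86 glandular-like and 125 d/d cells) and as black marks for the deposited depth. Elf3, Klf5 and Pax8 in d/d epithelium have the widest gaps between mark and bar, and the d/d cells were the deepest.

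The factors were found together in single cells. The median cell had UMIs of 7 of the 10 genes in the luminal-like, 6 in the glandular-like and 8 in the d/d group, at their different depths. Foxa2 and Sox17 shared 68 of 97 glandular-like cells and 103 of 138 d/d cells. Foxa2 and the luminal factor Elf3 were both present in 28 of 97 glandular-like cells and in 88 of 138 d/d cells, and Foxa2 with Klf5 in 34 and 73 cells. Singly, Foxa2 was present in 70 and 104 of these cells, Elf3 in 35 and 106, and Klf5 in 44 and 90. All are counts as deposited, where the d/d cells were deeper. Pairs at equal depth, or expected from the single counts, were not computed. Only 1 luminal-like cell had Foxa2, so such pairs were nearly absent there. The 69 d/d cells at or under the median depth of their class, with a median of 11687 UMIs, were closest in depth to the f/f groups. In them Foxa2 stood at 115 CPM (91.7 to 142), Elf3 at 109 CPM (86.9 to 136), Pax8 at 56.0 CPM (40.3 to 75.6) and Sox11 at 30.6 CPM (19.4 to 46.0). In the deeper 69 cells these levels were 158, 82.7, 50.1 and 36.6 CPM. The order of the groups for Foxa2, Pax8 and Sox11 was thus the same in either part. A split at 2 UMIs of the cycling genes is not corrected for depth, and deeper cells pass it more easily. The d/d cells with and without 2 such UMIs had medians of 47009 and 12770 UMIs. Between them Foxa2 stood at 160 and 120 CPM and Gata2 at 141 and 182 CPM. Cycling and depth cannot be told apart in this split.

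Outside the epithelium some of the genes were nearly silent and others were shared with other classes. In the kept d/d cells the epithelium held 91.6% of Pax8, 87.4% of Foxa2, 85.5% of Elf3, 53.4% of Sox17 and 50.7% of Klf5 UMIs, but 11.7% of Gata2 and 1.35% of Klf4 UMIs. Sox17 is also a factor of arterial endothelium, and its level in blood endothelium was 157 CPM for f/f against 317 CPM for d/d, a log2 fold of 1.02 (0.88 to 1.16). That fold was 0.98 with totals free of mitochondrial and ribosomal protein genes and just under 2-fold with at least 2000 UMIs per cell. Mettl14 did not differ beyond its interval in that class (ratio 1.03), and the cause of the Sox17 difference was not tested. Gata2 reached 362 CPM in f/f smooth muscle-like cells and 255 CPM in those of d/d, where the epithelium had 151 CPM. Foxa2, Elf3, Ehf and Pax8 stayed under 7 CPM in every other compared class.

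**Figure D4:**
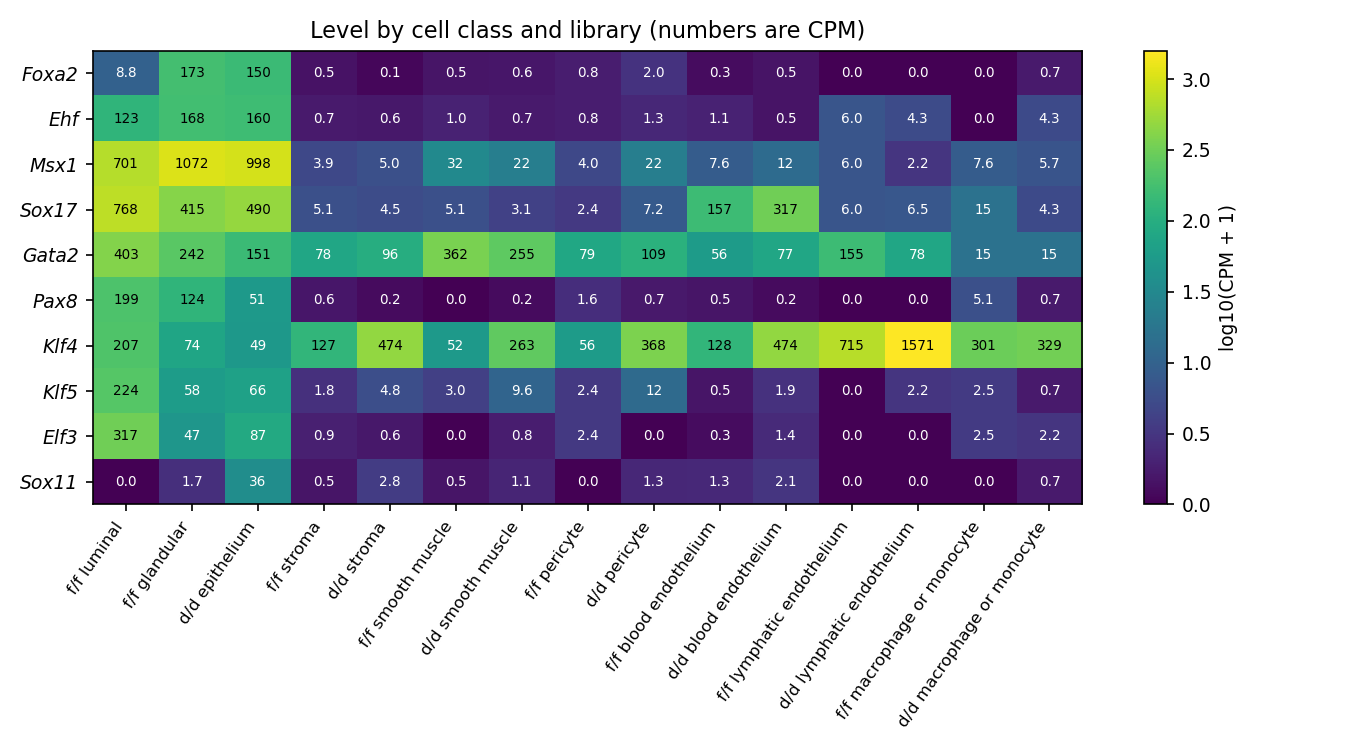
Level of each gene in the epithelial groups and in 6 other classes of each library, as a heat map of log10(CPM + 1) with the CPM written in each cell. Klf4 and Gata2 are spread over most classes, Sox17 is shared with blood endothelium (157 and 317 CPM), and Foxa2, Ehf, Pax8 and Elf3 are high in the epithelial columns.

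Klf4 was lower in d/d epithelium and higher in most other d/d classes. In stroma its level was 127 CPM for f/f against 474 CPM for d/d, a log2 fold of 1.90 (1.84 to 1.96). In smooth muscle-like cells it stood at 51.8 and 263 CPM (2.35, 2.06 to 2.65), and in pericyte-like cells at 56.3 and 368 CPM (2.71, 2.35 to 3.09). Blood endothelium-like cells had 128 and 474 CPM (1.89, 1.74 to 2.03), and lymphatic endothelium-like cells 715 and 1571 CPM (1.14, 0.85 to 1.43). With at least 2000 UMIs per cell the lymphatic value was 0.88, under 2-fold. Macrophage- or monocyte-like cells had 301 and 329 CPM, with an interval that holds 0. Against all f/f epithelium the log2 fold in epithelium was -1.40 (-1.66 to -1.13), a comparison that mixes makeup with level. Against the f/f glands it was -0.58 (-0.95 to -0.21), under 2-fold, and against the f/f lumen -2.06. In blood endothelium Mettl14 did not differ beyond its interval (ratio 1.03), and the cause of the Klf4 difference there was not tested. Klf4 is an inducible gene, so 7 immediate early genes that answer stimulation of cells within minutes (Fos, Jun, Junb, Egr1, Atf3, Ier2, Nr4a1) are given beside it, a list made with earlier results of these data known. Their log2 folds ran from 1.33 to 2.68 in stroma (median 2.39), from 0.59 to 2.07 in smooth muscle, from 1.15 to 2.72 in pericytes and from 1.16 to 1.84 in blood endothelium. In lymphatic endothelium they ran from 0.75 to 3.98, and in macrophages from -0.17 to 1.97. In d/d epithelium they ran from -0.61 to 0.60 against all f/f epithelium (median 0.27). Against the f/f lumen they ran from -0.57 to 1.58 (median 0.94), and against the f/f glands from -0.60 to 0.80 (median -0.04). Their part in the Klf4 result was not tested. Stroma is compared across different clusters: 52.9% of the f/f but 0.504% of the d/d stroma-like cells lay in cluster 0, and 58.8% of the d/d but 0.0214% of the f/f ones in cluster 3.

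Counted the same way, 3 of 9 tested genes were at least 2-fold higher in d/d stroma (Sox11, Klf4, Klf5), beside 9.97% of all genes, and 1 was lower (Pax8, 3 against 19 UMIs in all), beside 8.94%. In smooth muscle 2 of 5 were higher (Klf4, Klf5; 6.37% of all genes) and 0 lower (5.53%), and in pericytes 3 of 4 were higher (Msx1, Klf4, Klf5; 6.02%) and 0 lower (10.7%). In blood endothelium 2 of 4 were higher (Sox17, Klf4; 5.89%) and 0 lower (4.77%), and in lymphatic endothelium 1 of 2 was higher (Klf4; 6.55%) and 0 lower (7.9%), a split that became 0 higher and 1 lower (Gata2) with at least 2000 UMIs per cell. In macrophages 0 of 2 were higher (8.82%) or lower (11.6%). Few of the 10 had the 20 UMIs to enter in the smaller classes, and Klf5 in pericytes (18 against 3 UMIs) and Msx1 there (34 against 5) rest on few. TMM moved the split of all genes to 8.42% higher and 3.59% lower in smooth muscle, 8.46% and 6.96% in pericytes, 10.8% and 3.47% in lymphatic endothelium and 14.9% and 5.13% in macrophages, and left the counts of the 10 genes as they were. In stroma Klf5 had 1.80 CPM for f/f against 4.84 CPM for d/d, and Sox11 0.51 against 2.76 CPM, so both remained far under their d/d epithelial levels of 65.9 and 35.6 CPM.

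**Figure D5:**
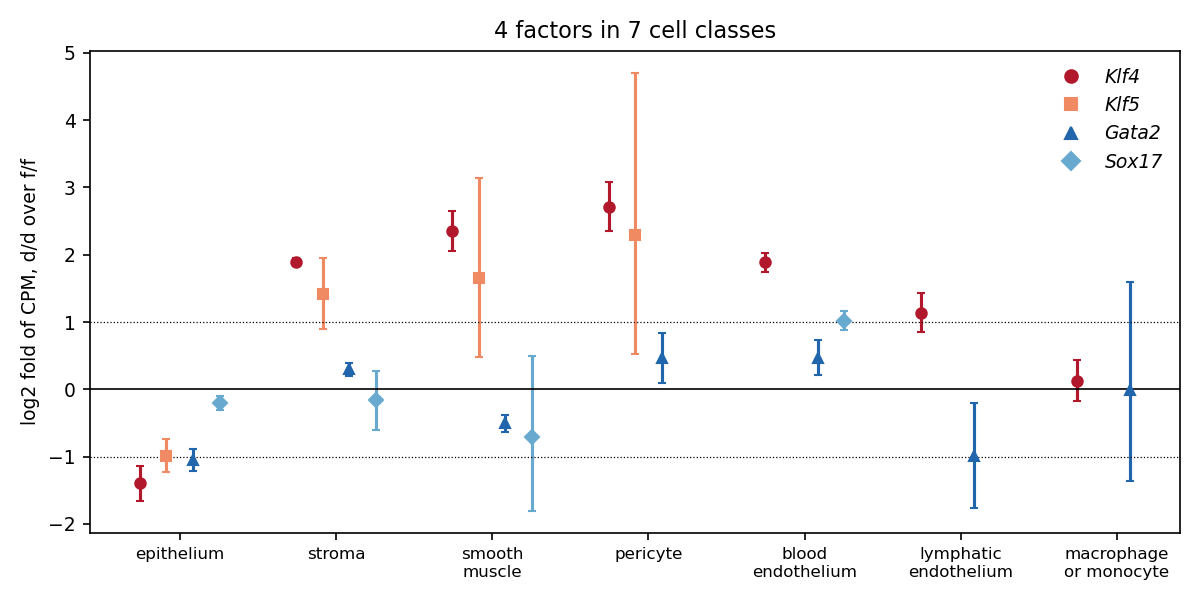
Log2 fold of d/d over f/f for Klf4, Klf5, Gata2 and Sox17 in each of 7 classes, with exact 95% counting intervals, dotted lines at 2-fold, and no point under 20 UMIs. Klf4 is below 0 in epithelium (-1.40) and above 1 in stroma, smooth muscle, pericytes and both endothelia. The epithelium points are against all f/f epithelium, which holds more luminal-range cells than the d/d epithelium.

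Other epithelial regulators differed in both directions. Of a list of 68, 46 had enough UMIs. Against the f/f lumen 11 were at least 2-fold higher in d/d epithelium and 11 lower, beside 17.7% and 14.3% of all genes. The median log2 fold was -0.05. Sox9 (4.91, 4.26 to 5.64), Msx2 (3.81), Id3, a target of BMP signals (2.67), Runx1 (2.01), Bhlhe40 (1.64) and Esr1, the estrogen receptor (1.58), were among the higher. Hoxa10, a homeobox factor of uterine patterning (-2.92, -3.64 to -2.22), Sox7 (-2.72), Prdm1 (-2.49), Klf2 (-1.92), Nr2f2 (-1.55) and Hes1, a Notch target (-1.20), were among the lower. Within f/f, Sox9, Msx2, Id3 and Esr1 were also at least 2-fold higher in glands than in lumen, and Sox7 and Klf2 lower. The other regulators named so far against the lumen were not called in that comparison. Few d/d cells were in the luminal range, so this comparison also mixes makeup with level. Against the f/f glands 7 were higher and 7 lower, beside 10.5% and 10.4% of all genes, with a median of 0.05. TMM made the counts 8 and 4, beside 13.7% and 6.97%. The higher included Cebpb (3.03, 2.59 to 3.50), Rarg (2.12, on 31 against 2 UMIs), Bhlhe40 (1.82), Sox9 (1.77), Runx1 (1.71) and Klf6 (1.15). Within f/f, Cebpb was at least 2-fold lower in glands than in lumen, and its log2 fold in d/d against the lumen was 0.28. The lower included Hoxa10 (-2.71), Spdef, an ETS factor of secretory cells (-2.25, on 9 against 12 UMIs), Zeb2 (-1.94), Trps1 (-1.45) and Foxo1 (-1.03). Of the regulators named, Sox9, Runx1 and Bhlhe40 were thus at least 2-fold higher than in both f/f groups, as Sox11 was. Hoxa10, Zeb2 (14 against 12 UMIs in the lumen) and Trps1 were at least 2-fold lower than in both, as Pax8 was. Hoxa10 stood at 51.7, 44.6 and 6.83 CPM. Stromal markers summed to 4.78, 5.78 and 1.43 UMIs per 10000 in the same order. The part of stromal RNA in the lower genes was not tested.

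A list of 9 ligands, enzymes and adhesion genes known to act with these factors was read beside them. Lif, which the glands make under Foxa2, stood at 2.20 CPM in luminal-like cells, 151 CPM in glandular-like cells and 28.7 CPM in d/d epithelium, a log2 fold of -2.39 against the glands (-2.73 to -2.05). Foxa2 itself differed there by -0.21. Ihh, the hedgehog ligand that the epithelium sends to the stroma, stood at 133, 182 and 182 CPM. Areg, an EGF family ligand of the lumen, stood at 191, 16.0 and 130 CPM, so it was at least 2-fold higher in d/d than in the glands (3.03, 2.37 to 3.77). Wnt5a stood at 285, 183 and 107 CPM, lower in d/d than in either f/f group, as were Gata2, Pax8 and Klf4. Ptgs1, an enzyme of prostaglandin synthesis, stood at 101, 6.73 and 11.1 CPM and so was low in d/d, as were Klf5 and Elf3. Ptgs2, the inducible relative of Ptgs1, stood at 94.5 CPM in luminal-like cells, 0.841 CPM (1 UMI) in glandular-like cells and 8.71 CPM in d/d epithelium. Muc1, a mucin of the cell surface, stood at 69.2, 53.8 and 98.9 CPM, highest in d/d but within 2-fold of both f/f groups. Cdh1, which encodes E-cadherin and is also a marker that set the epithelial class, stood at 365, 233 and 266 CPM, and the luminal marker Wnt7a is given with its panel.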

How the data were processed

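Minced and enzyme-digested whole uterus gave 1 3′ tag library per genotype, per the labels' protocols. The authors deposited unnormalized UMI counts for each gene in each barcode. The submitters' processing notes give Cell Ranger 3.0.1 and mm10, and the file headers give cellranger 6.0.1. Where identifiers shared a symbol, the one with the highest total took it. Cells needed 1000 UMIs, 500 genes and at most 20% mitochondrial UMIs. The highest Scrublet scores (scanpy 1.11.5) were called doublets at 0.8% per 1000 barcodes, 533 in f/f and 355 in d/d, since the automatic threshold marked 0 in f/f.

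Epithelium-like cells had at least 10 UMIs per 10000 and 4 of 9 epithelial markers, under 20 of stromal and under 10 of other markers. The luminal and glandular ranges needed 10 per 10000 of 6 and 7 markers and 2 times the other panel. These thresholds were set after the files were seen, and the members and lists were chosen with earlier results of these data known. Of the candidates, 48 f/f and 14 d/d cells were left out for markers of another class. UMIs were summed per library and class, with exact Poisson, Clopper-Pearson and conditional 95% intervals, a 0 set to 3 counts, and no test. Genes counted as higher or lower were 2-fold apart with at least 20 UMIs. Shares at equal depth are expectations for 5000 UMIs drawn from each cell. Regulators were named, up to 6 each way, by the interval bound nearest 0, and 1 of them is not reported here. Tested on simulated Poisson draws, which cover counting error only, the intervals for d/d over luminal-like cells (10206 genes) held the truth for 96.4% of unchanged, 96% of 2-fold and 100% of 4-fold genes. The lowest values were 92%, for 2-fold genes in f/f glands over lumen (8360 genes) and 4-fold genes in d/d over f/f epithelium (10641 genes). Alternatives were Leiden clusters (leidenalg 0.10.2), doublets kept, other minimums, TMM (edgeR 4.0.16), other totals, equal weight of cells, and cycling or very deep cells left out.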

Additional observations from a re-analysis of the deposited data

Results flagged for a closer look

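Klf4 differed in opposite directions between d/d and f/f in the epithelium and in other classes. Its log2 fold was -1.40 in epithelium, against 2.71 in pericytes, 2.35 in smooth muscle, 1.90 in stroma, 1.89 in blood endothelium and 1.14 in lymphatic endothelium. The epithelial value is against all f/f epithelium and mixes makeup with level. Against the f/f glands alone it was -0.58 (-0.95 to -0.21), under 2-fold. Mettl14 did not differ beyond its interval in blood endothelium (ratio 1.03, 0.735 to 1.43). Each class is 1 library per genotype, and the difference between classes was not tested.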

How the results depend on the processing

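No direction of a gene at least 2-fold apart was turned by any alternative. The 60 levels compared moved by less than their counting intervals with clusters or with doublets kept, as did 410 log2 folds over all alternatives, while 34 moved further. At 5000 UMIs per cell, 23 shares of cells moved further. The number of the 10 genes at least 2-fold higher in d/d than in the glands was 1, and 2 with TMM, with totals without mitochondrial and ribosomal protein genes, with each cell weighted equally, with cycling cells left out or with cells over 50000 UMIs left out (the last chosen after seeing the data), because Elf3 passed 2-fold. Against all f/f epithelium 5 were lower with clusters in place of 3, and 2 with TMM. In blood endothelium 1 was higher in place of 2 with at least 2000 UMIs per cell or with the other totals, where Sox17 fell short. With at least 2000 UMIs per cell, lymphatic endothelium had 0 higher in place of 1 and 1 lower in place of 0, and macrophages 1 higher in place of 0. The cause was not tested. Of the regulators lower than in the lumen, 11 became 7 with cycling cells left out or with at least 50 UMIs per gene, which leaves fewer genes tested. Of the 7 lower than in the glands, the count became 4 with TMM, the other totals, at least 50 UMIs or cells over 50000 UMIs left out, and 3 with cycling cells left out. Small folds under 2-fold changed sign: against the glands, TMM gave 0.02 for Foxa2, 0.12 for Msx1 and 0.15 for Ehf, and against all f/f epithelium Msx1 was -0.10 and Ehf -0.07 with cycling cells left out. No paired analysis was possible because each genotype had 1 library. Depth limits the f/f levels of Sox11 (0 luminal and 2 glandular UMIs) and of Foxa2 in the lumen (8 UMIs).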

Other observations

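Genes with the most similar levels over 17 class and library profiles of at least 50 cells were ranked by Pearson's r of log2(CPM + 10), a description in which profiles share libraries and depth. Foxa2 was most like Esyt3 (0.99), Tmc7 (0.99) and Slc44a3 (0.99). Sox17 was most like Mecom (0.97), and Msx1 like Dsg2 (0.98), Celsr2 (0.98) and Fcgbp (0.98), of which Dsg2 encodes a desmosomal cadherin. Ehf shared Fcgbp (0.99) and Dsg2 (0.99) with Msx1. Elf3 was most like Cdcp1, which Klf5 shared (0.97), and next like Tspan8 (0.99). Pax8 was most like Chdh (0.99), an enzyme of choline breakdown, and Sox11 like Gabrp (0.98), a subunit of an epithelial GABA receptor. Klf4, spread over many classes, had the lowest leading value, 0.83 with Crebrf, and Gata2 had 0.92 with Afap1.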
